A study of Irpex lacteus with 9 samples.

Results

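The genes named in the table of the white-rot fungus Irpex lacteus as BC629DRAFT_1646314 and NewGene_3410 are annotated as the sterol desaturase that yeast calls ERG3, and their transcripts are described here across 9 RNA sequencing libraries. These 2 members of 19212 genes were selected on their names, as genes called sterol desaturases, with results of these libraries already known. Their levels and differences between groups are therefore given as a description with no p-value. The calls known at the selection are named with nothing read from them. The fungus was grown on wheat straw to which distilled water, NH4Cl (an ammonium salt) or NaNO3 (a nitrate salt) had been added, with 3 libraries per group. The species is taken from the organism field and the title, although the design text gives it as Tricholoma album. The labels give no strain, dose or age of the cultures and do not say whether the 3 libraries of a group came from separate cultures, so p-values measure only the spread between these libraries. Each library held 17896230 to 23194078 counts. Markers of wheat photosynthesis matched 0 genes in the table, so straw RNA was not measurable with them.

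Ergosterol is the main sterol of fungal membranes and does in fungi what cholesterol does in animal cells. It is built from acetyl-CoA through mevalonate and squalene to lanosterol, and then by a series of demethylations, reductions and desaturations. ERG3 works near the end of this series and puts a double bond into the B ring of the sterol, using iron, oxygen and electrons that pass through cytochrome b5. In yeast, loss of ERG3 makes cells more tolerant to azole antifungals, which act on the earlier demethylase ERG11. ERG5, a cytochrome P450, then puts a double bond into the side chain, and ERG4 performs the last reduction. These sentences are background, mostly from yeast.

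Both genes carried the same annotation in every source given. KEGG names each a delta7-sterol desaturase, the Swiss-Prot match of each is the ERG3 protein of the fungus Leptosphaeria maculans, and each has the Pfam domain of the fatty acid hydroxylase superfamily. Both also share 1 best protein match from the fungus Phlebiopsis gigantea. BC629DRAFT_1646314 is a gene model with a locus tag, and NewGene_3410 is 1 of 3896 genes that the authors added as new. Whether they are separate genes, alleles or copies that share reads was not checked here. Both the split of counts between them and their sum are therefore uncertain.

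BC629DRAFT_1646314 stood highest in water. Its levels, as CPM (counts relative to library size, scaled by the TMM method of edgeR), were 97.2, 158.9 and 164.1 in water replicates 1 to 3. They were 47.0, 33.5 and 48.1 in the NH4Cl libraries and 57.0, 67.7 and 38.7 in the NaNO3 libraries. Every library with a salt lay below every water library, the lowest water library being replicate 1, and the NH4Cl and NaNO3 libraries overlapped. Means were 140.1 ± 37.2 CPM in water, 42.9 ± 8.09 in NH4Cl and 54.5 ± 14.7 in NaNO3 (SD, n = 3). In bulk RNA, fewer cells that express a gene and less of its RNA per cell cannot be told apart.

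NewGene_3410 followed the same order at a higher level. Its CPM was 156.4, 267.4 and 270.4 in water replicates 1 to 3, with replicate 1 again the lowest. It was 78.6, 61.9 and 80.1 in the NH4Cl libraries and 99.3, 116.2 and 64.7 in the NaNO3 libraries. Again each salt library was below each water library and the salts overlapped. Means were 231.4 ± 65.0, 73.5 ± 10.1 and 93.4 ± 26.3 CPM (SD, n = 3) in water, NH4Cl and NaNO3.

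**Figure D1:**
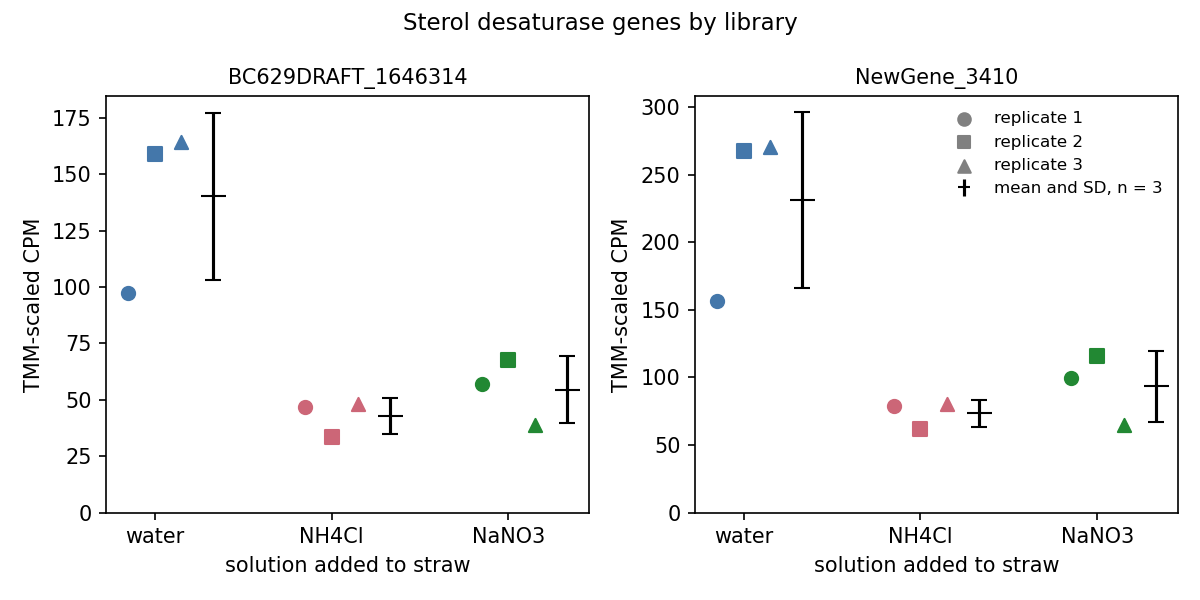
Level of each sterol desaturase in each library, in TMM-scaled CPM, with 1 point per library and, beside each group, its mean with a bar of 1 SD (n = 3). For BC629DRAFT_1646314 the water libraries sit between 97.2 and 164.1 and all 6 salt libraries at or below 67.7, and NewGene_3410 shows the same order between 156.4 and 270.4 in water and at or below 116.2 with a salt.

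The fitted log2 fold change of BC629DRAFT_1646314 was -1.71 ± 0.28 (SE) with NH4Cl against water, a level 3.27-fold lower. With NaNO3 against water it was -1.36 ± 0.28, a level 2.57-fold lower. For NewGene_3410 the values were -1.65 ± 0.29, or 3.15-fold lower, with NH4Cl and -1.31 ± 0.28, or 2.48-fold lower, with NaNO3. The 2 contrasts share the water libraries and so are not independent of each other. Between NH4Cl and NaNO3 the log2 difference was -0.35 ± 0.28 for BC629DRAFT_1646314 and -0.34 ± 0.28 for NewGene_3410, close to the size of its error. Replicate libraries of a group differed with a pooled SD of 0.38 on the log2 CPM scale for each gene.

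These differences belong to the results known when the genes were selected, and nothing is read from their call. In edgeR's quasi-likelihood fit over 14808 genes, with a gene called at a Benjamini-Hochberg adjusted p under 0.05, both were among the lower genes of both contrasts with water. Lower calls made up 0.398% of all tested genes with NH4Cl and 3.88% with NaNO3, and higher calls 0.277% and 1.18%. Neither gene was called between NH4Cl and NaNO3, where 0.594% of tested genes were higher and 0.5% lower. Every NH4Cl library lay below every water library for 16.1% of tested genes, and every NaNO3 library for 18.8%. The authors' deposited table gives BC629DRAFT_1646314 log2 fold changes of -1.68 with NH4Cl and -1.34 with NaNO3, and NewGene_3410 -1.62 and -1.28, all called down. Down calls make up 1.95% and 3.8% of the genes with a value in the authors' deposited table for those contrasts.

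Leaving out 1 library at a time, the log2 fold change of BC629DRAFT_1646314 stayed between -1.91 and -1.56 with NH4Cl and between -1.57 and -1.13 with NaNO3. For NewGene_3410 the ranges were -1.87 to -1.53 and -1.52 to -1.06. The sizes kept their direction, while most of the 17 other settings did not call either gene.

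Some libraries were less like the others of their group. The mean correlation of log2 CPM with the other libraries of the group was 0.929 for NaNO3 replicate 1 and 0.941 for NH4Cl replicate 3, the lowest of the 9, and 0.948 to 0.976 for the others. Without both, the log2 fold changes of BC629DRAFT_1646314 were -1.78 with NH4Cl and -1.38 with NaNO3, and those of NewGene_3410 were -1.70 and -1.34. Water replicate 1, the lowest water library for both desaturases, was also the lowest of its group for 18 of the other 28 tested ergosterol genes (64.3%), against 32.6% of all tested genes. NaNO3 replicate 3, the lowest NaNO3 library for both, was the lowest for 6 of the 28 (21.4%), against 27.1% of all tested genes. Of the libraries least like their group, NaNO3 replicate 1 was the lowest for 17 of the 28 (60.7%, against 39.5% of all tested genes) and NH4Cl replicate 3 for 13 (46.4%, against 37.1%). The part of these libraries in the levels was not tested.

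In levels per length of transcript, as FPKM (fragments per kilobase of transcript, scaled to the size of the library), both desaturases were abundant. BC629DRAFT_1646314 had a mean of 92.4 FPKM in water, 29.3 in NH4Cl and 37.9 in NaNO3. That placed it at rank 1333 of 19212 genes in water, 3398 in NH4Cl and 2904 in NaNO3. NewGene_3410 had 161.7, 53.3 and 68.9 FPKM, ranking 808, 2129 and 1816. Among the 30 tested ergosterol genes, NewGene_3410 ranked 7 in water, 12 in NH4Cl and 10 in NaNO3, and BC629DRAFT_1646314 ranked 10, 15 and 15.

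The proportion between the desaturases was similar in all 9 libraries. NewGene_3410 had 1.61, 1.68 and 1.65 times the counts of BC629DRAFT_1646314 in water replicates 1 to 3. The ratio was 1.67, 1.85 and 1.67 in the NH4Cl libraries and 1.74, 1.71 and 1.67 in the NaNO3 libraries. As a share of the counts of both, NewGene_3410 took from 61.7% (95% exact binomial interval 60.4 to 62.9) in water replicate 1 to 64.9% (62.5 to 67.1) in NH4Cl replicate 2. Differences of the share between libraries or groups were not tested, and overlap of intervals is no such test. The intervals cover counting error only, and not the uncertain assignment of reads to either gene. Reads carry no molecular identifiers. Together the pair took 246.9, 427.2 and 420.6 unscaled CPM in water, 118.7, 93.7 and 138.2 in NH4Cl and 185.3, 168.6 and 100.4 in NaNO3, so that the sum also lay lower in each salt library than in each water library.

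**Figure D2:**
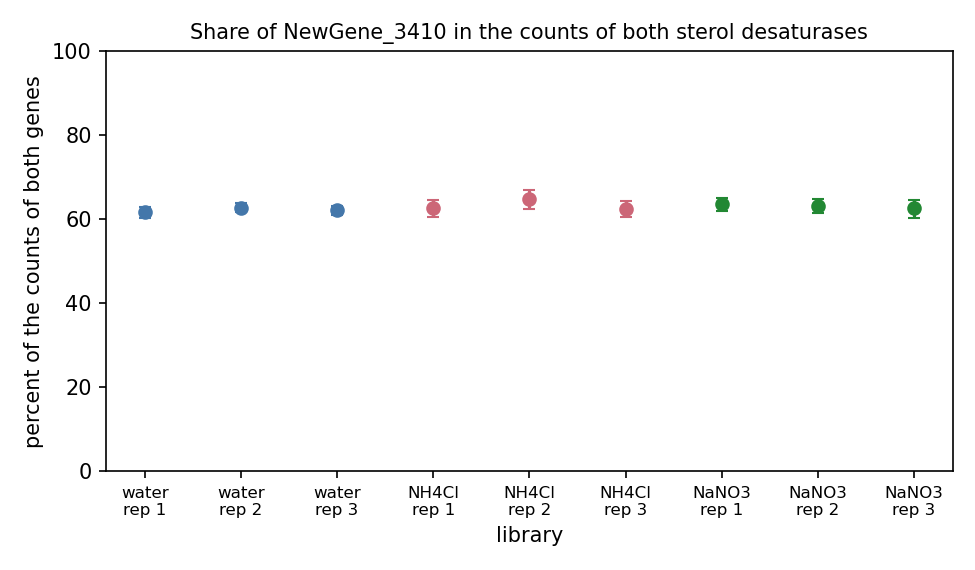
Share of NewGene_3410 in the counts of both sterol desaturases, in percent, for each library. Points are the shares and bars the 95% exact binomial intervals, which cover counting error only. The shares run from 61.7% to 64.9% across the 9 libraries.

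The constancy of this ratio was set beside that of all pairs of 1 new gene and 1 gene with a locus tag that share best protein match and KEGG hit. The desaturases are themselves among these pairs. The log2 ratio of the desaturases had an SD of 0.056 over the 9 libraries, and their log2 CPM correlated at r = 0.998. In 309 such pairs with both genes tested, the median SD was 0.189 and the median r 0.852. In the 156 of them with both means at 10 FPKM or more, the medians were 0.13 and 0.944. The other such pair among the ergosterol genes, NewGene_3002 and BC629DRAFT_1289263, had an SD of 0.053 and r = 0.979. Ranked from the smallest SD among the 156, it stood at 8 and the desaturases at 11. A correlation here is a description over 9 libraries that share their groups and depth.

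The other members of the enzyme family by annotation were a methylsterol monooxygenase and a sphingolipid hydroxylase. BC629DRAFT_1488012, the methylsterol monooxygenase (ERG25 in yeast, which oxidises the methyl groups removed from lanosterol), had 267.7, 382.3 and 462.6 CPM in water. It had 171.6, 138.2 and 133.4 in NH4Cl and 76.0, 360.5 and 210.6 in NaNO3. NH4Cl libraries lay below water, NaNO3 libraries overlapped with it, and neither difference passed (edgeR log2 -1.33 ± 0.48, adjusted p = 0.184, and -0.78 ± 0.47, adjusted p = 0.34).

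BC629DRAFT_1287629, annotated as SUR2, hydroxylates the long-chain base of sphingolipids. Its CPM was 35.9, 49.2 and 38.6 in water, 26.9, 16.3 and 15.5 in NH4Cl and 15.2, 15.9 and 16.3 in NaNO3. All salt libraries were below all water libraries. It fell with NaNO3 (edgeR log2 -1.39 ± 0.23, adjusted p = 0.0222) and missed the threshold with NH4Cl (-1.07 ± 0.23, adjusted p = 0.0633). The NaNO3 call was lost without water replicate 2 or 3 or NaNO3 replicate 2 or 3, and over the 9 fits that leave out 1 library the log2 fold change stayed between -1.47 and -1.24.

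**Figure D3:**
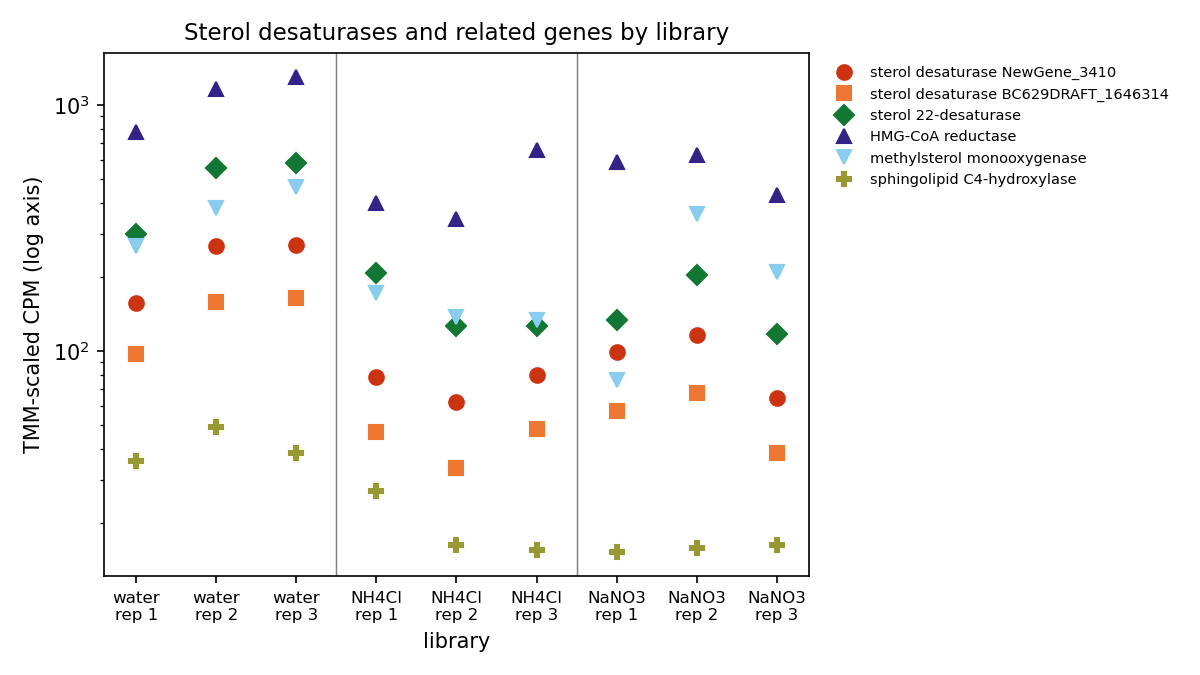
Levels by library, in TMM-scaled CPM on a log axis, of both sterol desaturases, ERG5 (sterol 22-desaturase in the key), HMG-CoA reductase, methylsterol monooxygenase and the sphingolipid hydroxylase SUR2, with 1 point per library. For ERG5 (BC629DRAFT_1580530) all salt libraries are at or below 207.0 and all water libraries at or above 299.3, whereas the methylsterol monooxygenase BC629DRAFT_1488012 in NaNO3 spans 76.0 to 360.5 and overlaps with water.

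The other steps of the ergosterol pathway varied in their values. Without the 2 genes, 28 of the pathway's genes were tested. Counts for this and the following lists stand beside shares of all tested genes. With NH4Cl against water, 7.77% of all tested genes were higher and 11% lower by the unadjusted edgeR p, and DESeq2 called 4.06% higher and 4.63% lower. With NaNO3 against water these shares were 10.8% and 14%, and 5.89% and 6.73% by DESeq2. In NH4Cl against NaNO3 they were 10.9% and 10.2%, and 5.1% and 5.18% by DESeq2. With NH4Cl against water none was called by edgeR, an unadjusted p under 0.05 was reached by 0 higher and 8 lower genes of the 28 (all tested genes, 7.77% and 11%), and DESeq2 called 3 lower and 0 higher. With NaNO3 against water 1 was called lower (3.88% of all tested genes), 4 lower and 0 higher genes of the 28 had an unadjusted p under 0.05 (all tested genes, 14% and 10.8%), and DESeq2 called 2 lower. Between NH4Cl and NaNO3 edgeR called none, with 3 lower at an unadjusted p under 0.05 and 1 called lower by DESeq2. The median log2 fold change of the 28 was -0.20 with NH4Cl and -0.24 with NaNO3, beside -0.02 and -0.03 over all tested genes. All NH4Cl libraries were below all water libraries for 10 of the 28 (35.7%, against 16.1% of all tested genes) and above them for 1 (11.9% of all tested genes). All NaNO3 libraries were below water for 3 of the 28 (10.7%, against 18.8%) and above it for 0 (14.2% of all tested genes).

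The called gene was the other late desaturase. BC629DRAFT_1580530, annotated as Cytochrome P450 61 and by KEGG as the side-chain sterol desaturase ERG5, had 299.3, 553.5 and 584.2 CPM in water replicates 1 to 3. It had 207.0, 126.2 and 126.7 in NH4Cl and 133.8, 204.3 and 117.9 in NaNO3. As for both ERG3 genes, every salt library was below every water library, water replicate 1 was the lowest of its group, and the salts overlapped. Its log2 fold change was -1.66 ± 0.34 with NaNO3 (edgeR adjusted p = 0.0365) and -1.64 ± 0.34 with NH4Cl (adjusted p = 0.0633). The NaNO3 call was lost without water replicate 2 or 3, NH4Cl replicate 2 or any 1 of the NaNO3 libraries, while the log2 value stayed between -1.90 and -1.46 over the 9 such fits.

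Of the early steps below, only squalene synthase had all NH4Cl libraries below water, and no difference passed. BC629DRAFT_12281, squalene synthase, which joins farnesyl units into squalene, had 211.2, 309.5 and 348.6 CPM in water and 123.3, 127.9 and 157.4 in NH4Cl, which do not overlap, and 137.1, 366.9 and 225.2 in NaNO3, which overlap with water (edgeR log2 -1.09 ± 0.35, adjusted p = 0.147, and -0.25 ± 0.34, adjusted p = 0.686). BC629DRAFT_1282969, squalene monooxygenase, which adds the oxygen needed before ring closure, gave -0.10 ± 0.23 with NH4Cl and -0.57 ± 0.23 with NaNO3. BC629DRAFT_1586743, lanosterol synthase, which closes the rings, gave -0.77 ± 0.27 and -0.23 ± 0.27, and neither gene was called.

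Steps after lanosterol also had values that did not pass. BC629DRAFT_1580577, the lanosterol demethylase ERG11, gave log2 -0.49 ± 0.41 with NH4Cl and -0.62 ± 0.41 with NaNO3, and its groups overlapped in both. BC629DRAFT_1590404, the sterol methyltransferase erg6, which adds the side-chain methyl group typical of fungal sterols, gave -0.21 ± 0.36 and -0.46 ± 0.36 with overlapping groups. BC629DRAFT_1725314, the C-8 sterol isomerase (ERG2), which makes the substrate of ERG3, had 10.4, 18.1 and 16.4 CPM in water, 7.79, 7.12 and 5.08 in NH4Cl and 5.10, 14.9 and 8.12 in NaNO3. Its NH4Cl libraries were below water and its NaNO3 libraries overlapped with it, at log2 -1.16 ± 0.39 (edgeR adjusted p = 0.16) and -0.67 ± 0.38 (adjusted p = 0.309).

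Some reductases of the pathway had a mean above water with at least 1 of the salts. BC629DRAFT_1278081, annotated by KEGG as a 7-dehydrocholesterol reductase, had 67.6, 68.5 and 80.7 CPM in water, 54.0, 52.7 and 39.7 in NH4Cl and 65.9, 132.6 and 107.9 in NaNO3. NH4Cl libraries lay below water and below NaNO3, and NaNO3 libraries overlapped with water. No difference passed in edgeR (log2 -0.57 ± 0.25, adjusted p = 0.272, with NH4Cl, 0.50 ± 0.25, adjusted p = 0.258, with NaNO3, and -1.07 ± 0.25, adjusted p = 0.0787, between the salts), and DESeq2 called it lower in NH4Cl than in NaNO3. BC629DRAFT_1291787, which KEGG names a delta14-sterol reductase, had 1.90, 1.70 and 1.84 CPM in water, 3.47, 2.85 and 1.98 in NH4Cl and 1.37, 2.48 and 2.14 in NaNO3. Every NH4Cl library was above every water library without passing the test (edgeR log2 0.60 ± 0.29, adjusted p = 0.307), and NaNO3 overlapped with water. This gene had only 30 to 61 counts per library. BC629DRAFT_1581159, a delta14-sterol reductase by Swiss-Prot, was far more abundant and went the other way with NH4Cl. It had 212.1, 228.0 and 301.8 CPM in water, 203.0, 163.8 and 118.3 in NH4Cl and 128.3, 253.4 and 204.2 in NaNO3. NH4Cl libraries lay below water, NaNO3 libraries overlapped with it, and neither difference passed (edgeR log2 -0.61 ± 0.30, adjusted p = 0.309, and -0.34 ± 0.30, adjusted p = 0.511).

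After the desaturases come the last reductase and sterol storage. BC629DRAFT_1276698, annotated as the ERG4 reductase, had 246.9, 314.0 and 380.6 CPM in water, 235.3, 166.5 and 161.0 in NH4Cl and 92.1, 215.8 and 157.1 in NaNO3. Both salts lay below water without passing the test (edgeR log2 -0.74 ± 0.32, adjusted p = 0.258, and -1.02 ± 0.32, adjusted p = 0.102). BC629DRAFT_1275942, a sterol O-acyltransferase that makes storage esters, had 96.1, 111.1 and 103.9 CPM in water and 32.4, 30.7 and 72.6 in NH4Cl, which do not overlap, and 127.1, 81.8 and 70.7 in NaNO3. Its log2 fold changes were -1.20 ± 0.36 (edgeR adjusted p = 0.129) and -0.15 ± 0.35 (adjusted p = 0.817). Some genes that KEGG places in the pathway have other names in Swiss-Prot, among them RING finger proteins (NewGene_3002 and BC629DRAFT_1289263), a carboxymethylenebutenolidase (BC629DRAFT_1470238) and the P450 alnH (BC629DRAFT_1660424), and each of these 4 had overlapping groups in both contrasts with water. BC629DRAFT_1726055, which KEGG places in the pathway and Swiss-Prot names a patatin-like phospholipase, had 75.0, 77.8 and 89.3 CPM in water. It had 52.2, 40.5 and 62.9 in NH4Cl and 95.4, 53.3 and 56.1 in NaNO3. Its NH4Cl libraries lay below water (edgeR log2 -0.64 ± 0.25, adjusted p = 0.226) and its NaNO3 libraries overlapped with it. BC629DRAFT_1278096, a probable lipase by Swiss-Prot in the same list, overlapped with water in both contrasts (log2 -0.19 ± 0.19 and -0.27 ± 0.19).

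**Figure D4:**
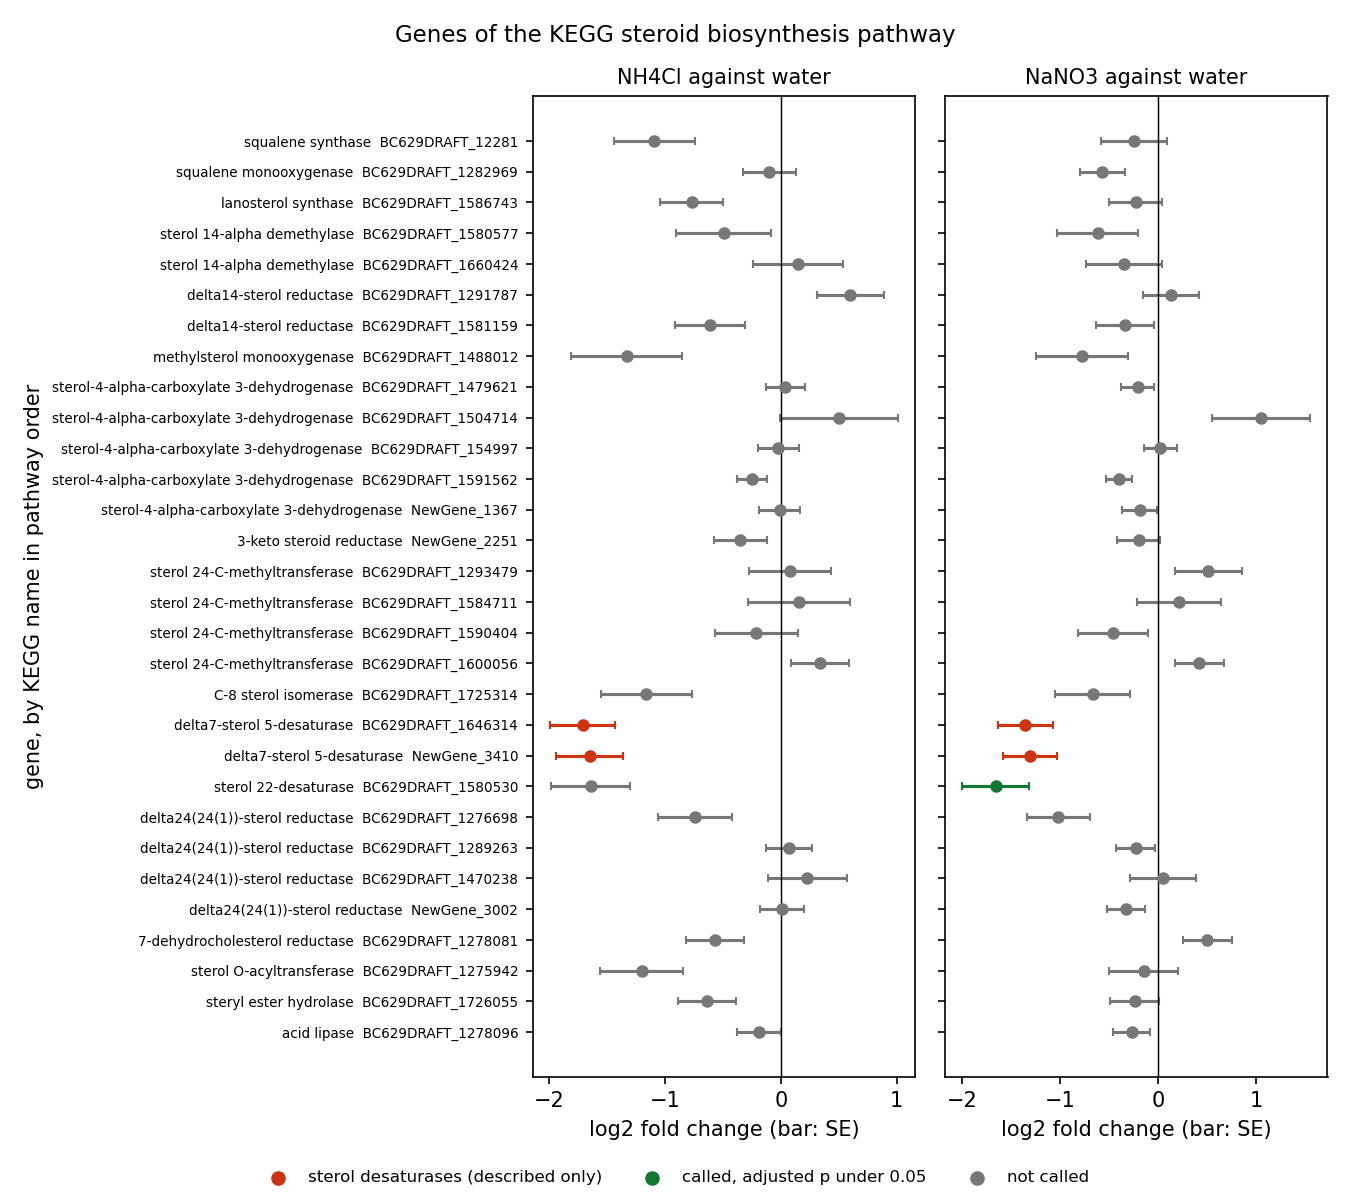
Fitted log2 fold change of the 30 tested ergosterol genes against water, in pathway order by KEGG name, with bars of 1 SE, for NH4Cl (left) and NaNO3 (right). The sterol desaturases are described only. BC629DRAFT_1580530 (ERG5) at -1.66 with NaNO3 is the called gene of the other 28.

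The mevalonate pathway supplies the carbon for sterols and other isoprenoids. Of 27 tested genes, edgeR called 0 with NH4Cl (unadjusted p under 0.05 for 2 higher and 3 lower genes, beside 7.77% and 11% of all tested genes, DESeq2 calls for 1 higher and 2 lower). It called 2 higher and 0 lower with NaNO3 (1.18% and 3.88% of all tested genes), with the unadjusted p under 0.05 for 2 higher and 2 lower (10.8% and 14%), and 0 between the salts (unadjusted p under 0.05 for 2 higher and 1 lower, beside 10.9% and 10.2%, a DESeq2 call for 1 lower). The median log2 fold changes were -0.01, -0.03 and -0.05. Both called genes, NewGene_1571 (log2 0.79 ± 0.19, adjusted p = 0.0494) and BC629DRAFT_1716372 (0.85 ± 0.20, adjusted p = 0.0483), are annotated as the alpha subunit of the prenyltransferases that attach lipid anchors to proteins, not as enzymes of sterol supply. Each call was lost in at least 7 of the 9 fits that leave out 1 library, with NewGene_1571 called only without NH4Cl replicate 1 or 3 and BC629DRAFT_1716372 only without NH4Cl replicate 3.

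HMG-CoA reductase, BC629DRAFT_1454474, is the regulated step of the mevalonate pathway in yeast and animals. It had 781.1, 1158 and 1304 CPM in water, 401.4, 343.2 and 655.0 in NH4Cl and 586.6, 628.0 and 431.8 in NaNO3. All salt libraries were below all water libraries, and the differences did not pass (edgeR log2 -1.21 ± 0.31, adjusted p = 0.0986, and -0.98 ± 0.31, adjusted p = 0.103). DESeq2 called it lower in both contrasts. Its values are given because its profile was among the 5 nearest to that of BC629DRAFT_1646314, so its order of groups restates that choice.

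Electrons reach sterol desaturases through cytochrome b5 and its reductases, and reach the P450 steps through a P450 reductase. Of 5 tested genes, edgeR called 0 with NH4Cl and 0 with NaNO3, where an unadjusted p under 0.05 was reached by 0 and 1 higher (7.77% and 10.8% of all tested genes) and by 3 and 3 lower genes (11% and 14%), and where DESeq2 called 3 lower with NH4Cl and 2 lower and 1 higher with NaNO3. The median log2 fold changes were -0.63 with NH4Cl and -0.43 with NaNO3, each against water, and -0.12 between the salts. BC629DRAFT_1528313, cytochrome b5, had 299.1, 279.5 and 291.4 CPM in water, 286.3, 194.3 and 137.4 in NH4Cl and 190.9, 299.9 and 291.3 in NaNO3, with overlap with water in NH4Cl and in NaNO3. BC629DRAFT_1734794, the P450 reductase, had 338.7, 462.4 and 384.5 CPM in water, 311.8, 200.9 and 177.1 in NH4Cl and 186.9, 218.8 and 196.9 in NaNO3, with all salt libraries below water and edgeR adjusted p = 0.135 and 0.0536.

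BC629DRAFT_1588484, NADH-cytochrome b5 reductase 2, went the same way as the desaturases with NH4Cl and the other way with NaNO3. It had 53.8, 50.2 and 45.7 CPM in water, 30.7, 32.3 and 33.4 in NH4Cl and 70.0, 67.8 and 74.2 in NaNO3, so that NH4Cl lay below water and NaNO3 above it with no overlap. It was lower in NH4Cl than in NaNO3 (edgeR log2 -1.14 ± 0.12, adjusted p = 0.0133), a call lost without NH4Cl replicate 2 or NaNO3 replicate 3, with log2 values of -1.18 to -1.10 over the 9 such fits. Against water it missed the threshold (log2 -0.63 ± 0.12, adjusted p = 0.0529, and 0.50 ± 0.12, adjusted p = 0.0507).

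Of 8 genes of sterol sensing, transport and esters, edgeR called 0 in each contrast. An unadjusted p under 0.05 was reached by 0 higher and 2 lower genes with NH4Cl (all tested genes, 7.77% and 11%), by 2 and 0 with NaNO3 (10.8% and 14%), and by 1 and 4 in NH4Cl against NaNO3 (10.9% and 10.2%). DESeq2 called 2, 1 and 2 genes in these contrasts. Their median log2 fold changes were -0.21, -0.02 and -0.56. The most abundant by mean FPKM, the oxysterol-binding protein BC629DRAFT_1580402, of a family that moves sterols between membranes, had 130.1, 120.9 and 123.4 CPM in water, 83.2, 113.3 and 232.0 in NH4Cl and 380.8, 197.5 and 174.0 in NaNO3. NaNO3 libraries were above water, NH4Cl libraries overlapped with it, and neither difference passed (edgeR adjusted p = 0.838 and 0.175).

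Sphingolipids sit beside ergosterol in fungal membranes. Of 24 tested sphingolipid genes, edgeR called 0 with NH4Cl (unadjusted p under 0.05 for 3 higher and 6 lower, beside 7.77% and 11% of all tested genes, DESeq2 calls for 1 higher and 3 lower). With NaNO3 it called 3 lower (3.88% of all tested genes), and an unadjusted p under 0.05 was reached by 0 higher and 8 lower (10.8% and 14%). It called 1 higher in NH4Cl than in NaNO3 (0.594%), with the unadjusted p under 0.05 for 4 higher and 1 lower (10.9% and 10.2%). All NH4Cl libraries were below all water libraries for 8 of the 24 (33.3%, against 16.1%), and all NaNO3 libraries for 11 (45.8%, against 18.8%). They were above all water libraries for 1 gene with NH4Cl and 2 with NaNO3 (11.9% and 14.2% of all tested genes). The median log2 fold changes were -0.11, -0.32 and 0.32, the last beside 0.02 over all tested genes. Besides SUR2, the lower genes were BC629DRAFT_1276112, serine palmitoyltransferase 2, the entry enzyme of the pathway, and BC629DRAFT_1735460, the alkaline ceramidase YDC1.

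BC629DRAFT_1276112 had 191.2, 247.9 and 228.9 CPM in water, 140.7, 90.1 and 90.6 in NH4Cl and 93.2, 81.6 and 72.6 in NaNO3. It was lower in all salt libraries, with log2 -1.43 ± 0.22 in NaNO3 (edgeR adjusted p = 0.0222) and -1.06 ± 0.22 in NH4Cl (adjusted p = 0.0616). BC629DRAFT_1735460 had 6.38, 13.8 and 13.2 CPM in water, 3.58, 4.5 and 4.88 in NH4Cl and 3.55, 3.10 and 2.94 in NaNO3, with log2 -1.79 ± 0.29 in NaNO3 (edgeR adjusted p = 0.0222) and -1.36 ± 0.29 in NH4Cl (adjusted p = 0.0644). Both NaNO3 calls were lost without water replicate 2 or 3 or NaNO3 replicate 2 or 3. The neutral ceramidase BC629DRAFT_1587326, which splits ceramides, had 134.8, 148.1 and 181.4 CPM in water, 306.0, 328.1 and 462.1 in NH4Cl and 152.8, 126.0 and 169.9 in NaNO3, and was higher in NH4Cl than in NaNO3 (edgeR log2 1.29 ± 0.22, adjusted p = 0.0416). That call was lost in 8 of the 9 fits that leave out 1 library, all but the fit without NH4Cl replicate 3.

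The genes whose log2 CPM followed the desaturases most closely over the 9 libraries came from several functions. Among 3650 other genes with a named product and a mean of at least 10 FPKM in a group, the 5 nearest to BC629DRAFT_1646314 were HMG-CoA reductase BC629DRAFT_1454474 (r = 0.958), the protein zds1 BC629DRAFT_1275545 (0.958), Ell1-associated factor 1 BC629DRAFT_706011 (0.956), NewGene_3712, a fused P450 and P450 reductase (0.955), and mitochondrial fumarate hydratase BC629DRAFT_1588922 (0.954), which works in the citric acid cycle. The 5 nearest to NewGene_3410 were BC629DRAFT_706011 (0.956), BC629DRAFT_551280, which Swiss-Prot names an itaconate transport protein (0.955), Bromodomain-containing factor 1 BC629DRAFT_1590974 (0.955), NewGene_3712 (0.954) and ERG5 BC629DRAFT_1580530 (0.954). In all, 45 and 40 candidates had r over 0.9, while the median r was -0.005 and -0.008. Which genes make each 5 rests on the third decimal, and ERG5 also stood at 0.954 with BC629DRAFT_1646314. On log2(FPKM + 1) the same genes had r from 0.921 (zds1) to 0.953 with BC629DRAFT_1646314. With NewGene_3410 they ran from 0.895 (Bromodomain-containing factor 1) to 0.948. These values are a description over libraries that share their groups, and the genes were chosen for following the desaturases.

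Within the ergosterol pathway this likeness varied from step to step. With BC629DRAFT_1646314, ERG5 correlated at r = 0.954, the C-8 isomerase BC629DRAFT_1725314 at 0.779, lanosterol synthase BC629DRAFT_1586743 at 0.756, ERG4 BC629DRAFT_1276698 at 0.731 and methylsterol monooxygenase BC629DRAFT_1488012 at 0.724. ERG11 BC629DRAFT_1580577 was at 0.518, erg6 BC629DRAFT_1590404 at 0.346 and BC629DRAFT_1600056, another gene annotated as a sterol methyltransferase, at -0.680. Without NaNO3 replicate 1 and NH4Cl replicate 3, which leaves 7 libraries, ERG5 stood at 0.977, ERG4 at 0.932, the isomerase at 0.891, methylsterol monooxygenase at 0.890 and ERG11 at 0.735. Lanosterol synthase then stood at 0.763, erg6 at 0.426 and BC629DRAFT_1600056 at -0.734. Not all values rose, as squalene synthase BC629DRAFT_12281 went from 0.717 to 0.710 and the reductase BC629DRAFT_1278081 from 0.204 to 0.078.

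Levels of 3 of the genes nearest to the desaturases are given as a description only. Fumarate hydratase BC629DRAFT_1588922 had 509.1, 597.5 and 646.7 CPM in water, 248.8, 156.6 and 155.0 in NH4Cl and 219.4, 282.9 and 200.3 in NaNO3. BC629DRAFT_551280, an itaconate transport protein by its Swiss-Prot name and K01556 in KEGG, had 28.7, 56.8 and 80.2 CPM in water. It had 13.1, 9.68 and 6.86 in NH4Cl and 12.9, 18.8 and 10.8 in NaNO3. NewGene_3712 had 36.4, 109.9 and 51.4 CPM in water, 14.5, 8.83 and 10.7 in NH4Cl and 13.2, 16.6 and 10.8 in NaNO3. In each of these, all salt libraries lay below all water libraries and the salts overlapped, which restates their choice for following the desaturases. Over all tested genes, 16.1% had every NH4Cl library below water and 18.8% every NaNO3 library. NewGene_3712 and BC629DRAFT_551280 met the limit of 10 FPKM only in water, with means of 38.5 and 27.1 FPKM there.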

How the data were processed

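Polyadenylated RNA of 9 libraries, 3 per group, was measured. The authors deposited 1 table of 19212 genes with whole-number counts and FPKM values per library, and HISAT2 and StringTie are named in the submitters' processing notes without versions. Other columns of the deposited table, per the file headers, hold the authors' DESeq2 log2 fold changes and calls, made with a fold of 2 and an FDR of 0.01 as limits. The aligner settings, genome build and strand setting are not given in the sources used here, and the protocol text covers plant and animal extraction without saying which was used.

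Counts were tested in edgeR 4.0.16 (R 4.3.3; filterByExpr, TMM, glmQLFit, glmQLFTest) with all 9 libraries, no block and 3 contrasts, and 14808 genes passed the filter. A gene was called at a Benjamini-Hochberg adjusted p under 0.05 over all tested genes. "Fell", "higher" and "lower" in counts of calls refer to that. The SE is the unshrunk log2 fold change divided by the square root of F. Levels are TMM-scaled CPM, and log2 CPM used a prior count of 2. The code was tested on simulated counts.

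The 2 sterol desaturases and the 7 gene lists (by KEGG pathway or annotation words) were chosen with earlier results of these data known, and list counts leave out the 2 genes. Text values were given for the 2 genes, for the family and ergosterol lists, for the called genes of the other lists (or the most abundant where none was called), and for the 5 genes most alike to each. HMG-CoA reductase entered as one of the latter. Not every gene that this rule names is printed. Alternatives were DESeq2 1.42.0, limma 3.58.1 on log2(FPKM + 1) and log2(FPKM + 0.1), RLE scaling, no filter, 2-group fits, a replicate block and libraries left out. No sequence is shown, since none was used here.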

Additional observations from a re-analysis of the deposited data

How the results depend on the processing

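The fold changes of BC629DRAFT_1646314 and NewGene_3410 kept their sign in all 17 alternatives of each contrast, while counts of called genes depended strongly on the tool and the libraries. RLE in place of TMM scaling moved the median log2 fold change of all genes by 0.035 for NH4Cl and 0.042 for NaNO3, both against water, and by -0.007 between the salts, the order used below. Genes called were 100, 749 and 162 with edgeR, and 1198, 1938 and 1418 with DESeq2. With limma on log2(FPKM + 0.1) they were 18, 353 and 101, with limma on log2(FPKM + 1) 414 in NaNO3 against water, with no filter 48 in NH4Cl against water, with only the 2 compared groups in the fit 10, 492 and 12, and without NH4Cl replicate 3 and NaNO3 replicate 1 765 and 810 in the first and last contrast. Leaving out 1 library gave 0 to 365, 0 to 700 and 0 to 535.

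Same-numbered replicates correlated at -0.28 to 0.286 in their deviations from group means, and differently numbered ones at -0.415 to 0.46. The deviations of the 3 libraries of a group sum to 0, so these correlations cannot tell whether the numbers pair the libraries. With the replicate block, calls were 0, 0 and 3, and every list count that was above 0 became 0.

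List counts (main values in the report) with DESeq2 in NH4Cl against water were family 1, ergosterol 3, mevalonate 3, electron donors 3, sensing and transport 2 and sphingolipid 4. In NaNO3 against water they were ergosterol 2, donors 3, sensing 1 and sphingolipid 5, and between the salts ergosterol 1, mevalonate 1, sensing 2 and sphingolipid 2. RLE scaling gave 1 donor with NaNO3. Both limma fits gave 0 mevalonate genes with NaNO3 and 0 sphingolipid genes between the salts, and no filter gave 0 mevalonate genes with NaNO3. With 2 groups in the fit, NaNO3 gave ergosterol 0 and mevalonate 1, and the salts donors 0 and sphingolipid 0. Without NH4Cl replicate 3 and NaNO3 replicate 1, NH4Cl gave ergosterol 2, mevalonate 2, donors 1, sensing 1 and sphingolipid 2. NaNO3 then gave 1 ergosterol gene, BC629DRAFT_1278081, higher, in place of the ERG5 gene, with donors 1 and sensing 1, and the salts ergosterol 2, mevalonate 1, sensing 3 and sphingolipid 2. With 1 library left out, counts ran with NH4Cl from 0 to 1 (family), 0 to 1 (donors) and 0 to 3 (sphingolipid), with NaNO3 from 0 to 1 (family, ergosterol and donors), 0 to 2 (mevalonate) and 0 to 3 (sphingolipid), and between the salts from 0 to 1 (ergosterol, donors and sphingolipid) and 0 to 2 (sensing). The ratio of the desaturases had a median of 1.67 by counts and 1.77 by FPKM. The causes of these changes were not tested. The desaturases had at least 589 counts each in every library.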
